A study of Canis lupus familiaris with 20 samples.

Results

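The inflammatory CC chemokines that attract monocytes, CCL2, CCL3, CCL4, CCL5, CCL7, CCL8 and CCL13, were followed in canine mammary cancer cells and macrophages grown together. These 7 genes were taken by name, through the RefSeq accession of each array probe, and make up 7 of the 1045 gene symbols that could be named on the array. Each was represented by 1 probe. Cancer cells of 5 lines were stained with the dye CMTMR and grown for 72 h with CD64-positive monocytes from dog blood, which turn into macrophages in culture, and the stained cancer cells and the unstained macrophages were then separated by flow sorting. Each sorted population was hybridised on two-colour Agilent arrays against the same cells grown alone (the mono-culture), once in each dye. The lines were CMT-U27 from a simple carcinoma, CMT-U309 from a spindle-cell tumour, P114 from an anaplastic cancer, and CMT-W1 and CMT-W2 from adenocarcinomas. The 20 arrays formed 10 dye-swap pairs and each pair was counted as 1 replicate, so n = 5 co-cultures for the cancer cells and n = 5 for the macrophages. Each line is a single cell line, and how many dogs or separate macrophage mono-cultures were used is not stated in the sources used here. The p-values therefore measure the spread between co-cultures with different lines, and may leave out part of the spread of the macrophage mono-culture.

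CC chemokines are small secreted proteins that bind receptors on leukocytes and draw these cells along a gradient. CCL2, CCL7, CCL8 and CCL13 are the monocyte chemoattractant proteins, which share the receptor CCR2, while CCL3 and CCL4 are the macrophage inflammatory proteins and share the receptor CCR1 with CCL5. In tumours these ligands are known as signals by which cancer cells, stroma and macrophages recruit further blood monocytes. In the canine gene table CCL13, CCL8, CCL7 and CCL2 were consecutive protein-coding genes on chromosome 9, and CCL4 and CCL3 were neighbours on the same chromosome.

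A ratio here is co-culture over mono-culture on the log2 scale, as the mean of a dye-swap pair, so that 1 unit is a doubling. A level is the log2 processed signal of a culture after scaling between arrays, averaged over both dyes, and is compared only for the same probe. A ratio was counted as measured where at least 1 of the cultures was well above background on both arrays, and a gene was tested where at least 3 of the 5 co-cultures were measured. No spot of these 7 probes was saturated or marked as an outlier, and the measured ratios of a dye-swap pair differed by at most 1.90.

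The sorted populations did not stand as far apart as their labels. Across 20547 genes, the levels in cancer cells and in macrophages taken from the same co-culture had a Pearson correlation of 0.98 in the P114 and CMT-U309 co-cultures, 0.94 in that of CMT-U27, 0.90 in that of CMT-W2 and 0.84 in that of CMT-W1. Cancer cells and macrophages in mono-culture correlated at 0.56 to 0.78 for the same pairs of arrays. The sorted CMT-U27 cancer cells were closer to mono-cultured macrophages (0.90) than to their own mono-culture (0.83). The sorted cancer cells of the other lines were closer to their own mono-culture. The sorted macrophages of P114 were closer to mono-cultured P114 cells (0.93) than to mono-cultured macrophages (0.79). The same order held with CMT-U27 (0.87 against 0.81) and, by less, with CMT-U309 (0.85 against 0.83) and CMT-W1 (0.80 against 0.79). With CMT-W2 both values were 0.83. The 5 macrophage mono-cultures correlated at 0.98 to 0.99 with each other. Of 19 listed macrophage markers, 9 could be matched to a probe by symbol, among them the scavenger receptor CD163, the lectin CD209 and the Fc receptor FCGR1A. In the sorted cancer cells 8 of the 9 could be tested and all 8 rose, with a median ratio of 4.64, and in the sorted macrophages 9 of 9 fell, with a median ratio of -3.66. Their log2 summed level, over the 7 markers with a value in every culture, was 10.03 to 14.52 in mono-cultured cancer cells, 14.04 to 18.95 in sorted cancer cells, 15.77 to 17.96 in sorted macrophages and 19.34 to 19.78 in mono-cultured macrophages. Of 3 mesenchymal markers 2 rose in the sorted macrophages, the collagen genes COL1A1 (ratio 4.32, adjusted p = 0.0035) and COL1A2 (4.25, adjusted p = 0.0039), and in the cancer cells 1 fell, PDGFRB. Of 2 granulocyte markers S100A8 rose in the cancer cells and fell in the macrophages. Of the lymphocyte markers 0 of 2 changed in the cancer cells, and in the macrophages 1 of 3 rose and 2 fell. ERBB2 fell in the macrophages (-0.74, adjusted p = 0.045). It was the only listed epithelial marker that could be matched to a probe by symbol. Most probes had no symbol, so the array can hold further markers that were not followed here. The part of this movement of markers in the chemokine values was not tested, and in sorted bulk RNA fewer cells of a type and less RNA per cell cannot be told apart.

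In the sorted cancer cells the chemokines were raised in co-culture with macrophages. CCL2, CCL3, CCL4, CCL5 and CCL8 were higher in 5 of 5 lines, by 8.82-fold to 63.8-fold in a single line. Of the 7 genes, 6 could be tested and all 6 passed as higher in co-culture (limma, Benjamini-Hochberg adjusted p under 0.05 over 23061 genes), where 7.13% of all genes did so. The 7 genes were chosen with earlier results of these data known, so this share describes them and is no independent test. The median ratio of these 6 genes was 4.13, against -0.02 over all genes tested.

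CCL2 is the main chemoattractant of blood monocytes. Its ratio in the cancer cells was 4.83 in CMT-U27, 4.31 in CMT-U309, 4.55 in P114, 4.74 in CMT-W1 and 5.87 in CMT-W2. CCL2 was higher in the sorted cells of every line, and the spread between lines was small beside the change. The mean ratio was 4.86 ± 0.60 (SD, n = 5), a 29.0-fold rise (adjusted p = 0.0005). CCL8, a gene of the same cluster on chromosome 9 and a further ligand of monocyte receptors, gave ratios of 4.28 in CMT-U27, 3.28 in CMT-U309, 3.77 in P114, 3.51 in CMT-W1 and 4.72 in CMT-W2. All lines were again on the same side, with a mean of 3.91 ± 0.59 (SD, n = 5), which is 15.0-fold (adjusted p = 0.0009).

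CCL3 and CCL4 attract monocytes and macrophages, and also T lymphocytes. CCL3 had ratios of 5.29 in CMT-U27, 4.18 in CMT-U309, 4.97 in P114, 5.74 in CMT-W1 and 5.996 in CMT-W2. This was the highest mean of the 7 genes in the cancer cells, 5.23 ± 0.71 (SD, n = 5) or 37.7-fold (adjusted p = 0.0005). CCL4 had ratios of 4.53 in CMT-U27, 3.39 in CMT-U309, 3.86 in P114, 4.40 in CMT-W1 and 5.20 in CMT-W2. Both genes were lowest in CMT-U309 and highest in CMT-W2, and the CCL4 mean was 4.28 ± 0.69 (SD, n = 5), a 19.4-fold rise (adjusted p = 0.0009).

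CCL5, which attracts monocytes, T lymphocytes and eosinophils, had ratios of 3.77 in CMT-U27, 3.14 in CMT-U309, 4.17 in P114, 4.22 in CMT-W1 and 4.64 in CMT-W2. It was higher in the sorted cells of each line, with a mean of 3.99 ± 0.56 (SD, n = 5) or 15.8-fold (adjusted p = 0.0009). With the unpaired test that the methods name, run on levels with the differences between lines counted as error, none of the 6 genes passed after Benjamini-Hochberg adjustment, with adjusted p between 0.11 and 0.64. That test called 7 of 20001 genes in all.

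CCL7 and CCL13 behaved otherwise from line to line. CCL7, a monocyte attractant close to CCL2 in sequence, had ratios of 0.44 in CMT-U27, 3.49 in CMT-U309, 5.01 in P114 and 4.84 in CMT-W2, while in CMT-W1 neither culture was well above background. In CMT-W2 both mono-culture arrays (0 of 2 well above background) were dim, so the size of that ratio is poorly fixed. The sorted cells of CMT-U309, P114 and CMT-W2 held more CCL7 than their mono-cultures. Those of CMT-U27 changed little, and this line held the highest level in mono-culture (9.43, against 5.15 to 8.44 in the other lines). The mean CCL7 ratio was 3.45 ± 2.11 (SD, n = 4, adjusted p = 0.034), and it missed the threshold without CMT-U309 (adjusted p = 0.078), without P114 (0.10) or without CMT-W2 (0.090). With each dim mono-culture array set to its lowest signal well above background, the difference over all 5 lines was 2.23. With another background correction, normexp with loess, the ratio was 2.01 (adjusted p = 0.082). With all 5 lines counted whatever their signal it was 2.74 (adjusted p = 0.15). CCL13 was too dim to test in the cancer cells. It was well above background on 2 of 10 mono-culture arrays and on 6 of 10 co-culture arrays, and was measured in CMT-U27 with a ratio of 3.09 and in CMT-U309 with 1.34.

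**Figure D1:**
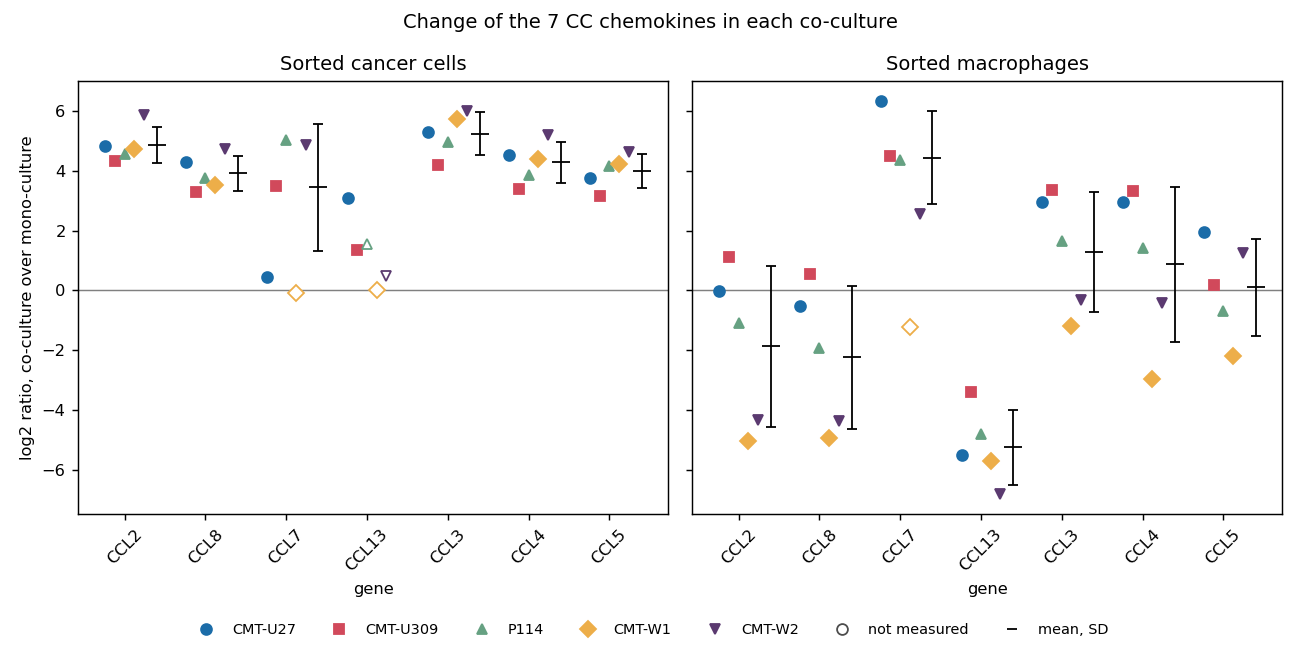
Co-culture over mono-culture as a log2 ratio (vertical axis) for the 7 chemokines in the sorted cancer cells (left) and the sorted macrophages (right), with a symbol for each line, open where the gene was not measured, and the mean and SD over measured co-cultures as a bar. CCL2, CCL3, CCL4, CCL5 and CCL8 lie between 3.14 and 5.996 in all 5 cancer lines, while in the macrophages they lie on both sides of 0.

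In the sorted macrophages the same chemokines did not move together. CCL7 rose and CCL13 and CCL8 fell, while CCL2, CCL3, CCL4 and CCL5 did not pass the test. Of the 7 genes 1 was higher, where 22.4% of 24208 genes were, and 2 were lower, where 27.9% of genes were, so these shares stood close to those of all genes tested. The median ratio of the 7 was 0.10, against -0.16 over all genes.

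CCL13, a ligand of CCR2 and CCR3 that attracts monocytes and eosinophils, fell in the macrophages of every co-culture. Its ratio was -5.50 with CMT-U27, -3.40 with CMT-U309, -4.80 with P114, -5.71 with CMT-W1 and -6.81 with CMT-W2. The mean was -5.24 ± 1.26 (SD, n = 5; adjusted p = 0.0001). All 10 mono-culture arrays were well above background, but only 5 of the 10 co-culture arrays were, so the size of the fall is poorly fixed. With each dim array set to its lowest signal well above background, the fall was 4.79 on the log2 scale, and with the normexp background correction and loess the ratio was -2.44 (adjusted p = 0.0007).

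CCL7 moved the opposite way. Its ratio was 6.34 with CMT-U27, 4.48 with CMT-U309, 4.35 with P114 and 2.54 with CMT-W2, and in CMT-W1 it was not measured, since 1 of 2 mono-culture arrays and 0 of 2 co-culture arrays were well above background. With P114 and with CMT-W2 the mono-culture was bright enough on only 1 of 2 arrays. The mean was 4.43 ± 1.55 (SD, n = 4; adjusted p = 0.001), or 21.5-fold, and with dim mono-culture arrays set to their lowest signal well above background the difference over all 5 co-cultures was 3.19. The ratio was 2.86 with normexp and loess (adjusted p = 0.038), and with all 5 co-cultures counted whatever their signal it was 3.29 (adjusted p = 0.095). CCL7 was the only one of the 7 that passed as higher in both sorted populations.

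CCL2 and CCL8 split the co-cultures into groups. The CCL2 ratio in the macrophages was -0.03 with CMT-U27, 1.11 with CMT-U309, -1.08 with P114, -5.03 with CMT-W1 and -4.32 with CMT-W2. The CCL8 ratio was -0.52, 0.56, -1.93, -4.93 and -4.37 in the same order. Both genes were lowest with the 2 adenocarcinoma lines and changed by less than 2 units with the other lines. The CCL2 mean was -1.87 ± 2.69 (SD, n = 5; adjusted p = 0.11), which passed without CMT-U309 (-2.61, adjusted p = 0.043), with the slide as a random block (0.039) and in a fit shared by both cell types (0.049). The CCL8 mean was -2.24 ± 2.38 (SD, n = 5, limma adjusted p = 0.042), and it passed in 10 of the 17 settings tried. It did not pass without P114 (adjusted p = 0.070), without CMT-W1 (0.13) or without CMT-W2 (0.13). Nor did it pass with normexp and loess (0.074), with no filter on dim probes (0.15) or from the arrays with the co-culture in Cy3 (0.052).

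CCL3 and CCL4 followed the same order of co-cultures at a higher position. The CCL3 ratio was 2.96 with CMT-U27, 3.37 with CMT-U309, 1.65 with P114, -1.20 with CMT-W1 and -0.33 with CMT-W2. The CCL4 ratio was 2.94, 3.33, 1.43, -2.95 and -0.41 in that order. Both were higher in 3 co-cultures and lower with the 2 adenocarcinoma lines, so the means of 1.29 ± 2.00 for CCL3 (adjusted p = 0.14) and 0.87 ± 2.59 for CCL4 (adjusted p = 0.42) were within the spread (SD, n = 5). Without CMT-W1 both passed as higher, with 1.91 for CCL3 (adjusted p = 0.037) and 1.82 for CCL4 (adjusted p = 0.046). CCL5 had ratios of 1.94 with CMT-U27, 0.19 with CMT-U309, -0.70 with P114, -2.18 with CMT-W1 and 1.25 with CMT-W2. It did not follow that order, and its mean of 0.10 ± 1.62 (SD, n = 5; adjusted p = 0.89) changed sign without CMT-U27 or without CMT-W2.

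The macrophage markers moved with these values. The median marker ratio in the sorted macrophages was -3.06 with CMT-U27, -1.97 with CMT-U309, -3.97 with P114, -5.33 with CMT-W1 and -4.64 with CMT-W2. This is the order of the co-cultures in which CCL2, CCL3, CCL4 and CCL8 also ran, from CMT-U309 at the top to CMT-W1 at the bottom. In the sorted cancer cells the median marker ratio was 5.89 in CMT-U27, 4.30 in CMT-U309, 3.28 in P114, 3.33 in CMT-W1 and 5.42 in CMT-W2. The chemokines did not run at a fixed distance from the markers. In the macrophages CCL2 stood 2.89 to 3.08 above the marker median with CMT-U27, CMT-U309 and P114 and 0.31 to 0.32 above it with CMT-W1 and CMT-W2. CCL3 stood 4.14 to 6.02 above the marker median in all 5 co-cultures, and CCL13 stood 0.38 to 2.44 below it. In the sorted cancer cells CCL2, CCL3, CCL4, CCL5 and CCL8 lay on both sides of the marker median. Their distance from it ran from -1.07 to 1.40 for CCL2, -1.61 to 0.49 for CCL8 and -1.37 to 1.07 for CCL4. For CCL3 it ran from -0.60 to 2.41, and for CCL5 from -2.13 to 0.89. Over its measured lines CCL7 ran further, from -5.45 in CMT-U27 to 1.73 in P114. CCL13 was below the marker median, at -2.80 in CMT-U27 and -2.96 in CMT-U309, the lines where it was measured. For CCL2, CCL3, CCL4, CCL5 and CCL8 together the distance thus ran from -2.13 to 2.41. The part of the markers' change in these values was not tested.

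**Figure D2:**
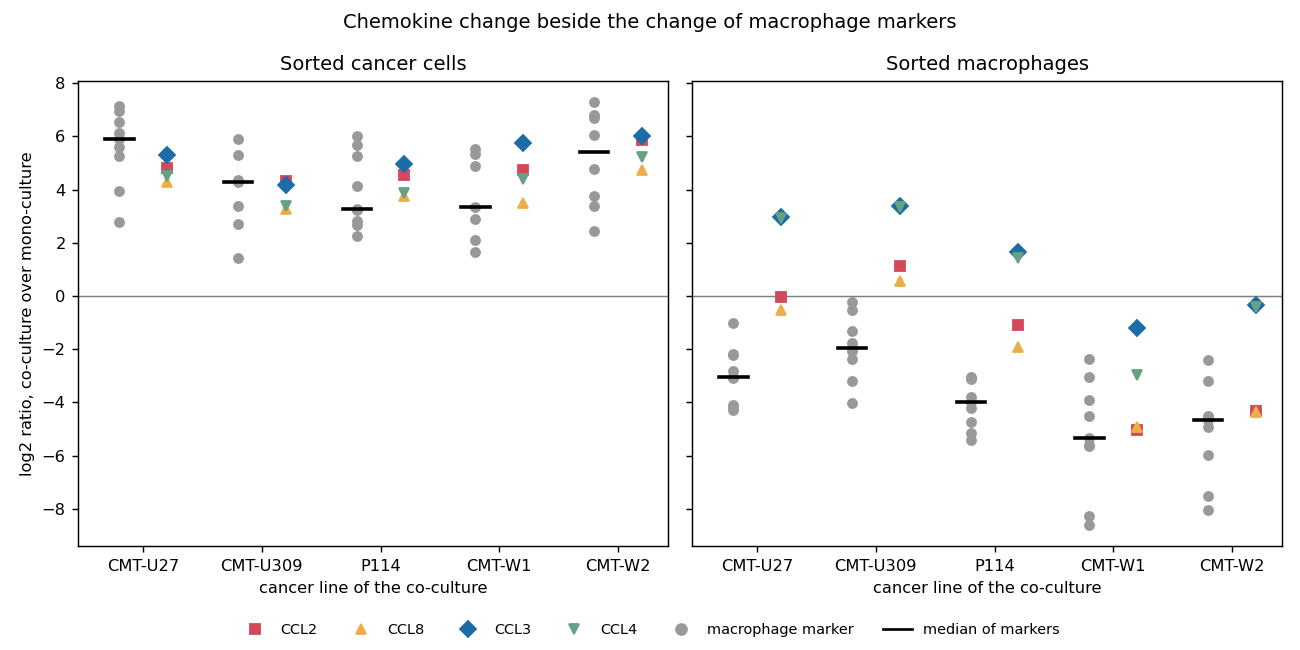
Co-culture over mono-culture as a log2 ratio (vertical axis) for each cancer line (horizontal axis) in sorted cancer cells (left) and sorted macrophages (right). Grey points are the measured macrophage markers, black lines their medians, and coloured symbols are CCL2, CCL8, CCL3 and CCL4. In the macrophages the marker medians run from -5.33 to -1.97 and CCL3 lies above the median in all 5 co-cultures.

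Cancer cells and macrophages differed in their change for 5 of the 6 genes that could be compared. The macrophage ratio minus the cancer cell ratio was -6.72 ± 1.03 for CCL2 (SE, adjusted p = 0.0006), -6.15 ± 0.93 for CCL8 (0.0005), -3.95 ± 0.81 for CCL3 (0.0033), -3.89 ± 0.67 for CCL5 (0.0011) and -3.41 ± 1.01 for CCL4 (0.023), with n = 5 in each cell type in the limma fit. Lower in macrophages were 16.1% of 22402 genes, and the median difference was -3.92 for the 6 chemokines and -0.02 for all genes. CCL7 differed by 0.98 (95% interval -1.38 to 3.34, adjusted p = 0.51). Macrophages and cancer cells lay on different slides except for a slide that held the CMT-U27 macrophages and the CMT-W1 cancer cells. With the slide as a fixed block the difference came from those cultures alone and no chemokine passed, with -4.76 for CCL2, -4.03 for CCL8, -2.78 for CCL3, -2.28 for CCL5 and -1.46 for CCL4. The CCL4 difference also missed the threshold without P114 (adjusted p = 0.052) or CMT-W2 (0.11) and with normexp and loess (0.058).

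In mono-culture the macrophages held more of these chemokines than the cancer cells. Of the 7 genes 6 were higher in mono-cultured macrophages, where 19.8% of 23665 genes were, and the median difference was 3.97 against 0.13 over all genes. Among these, CCL13 entered the test through the macrophages alone, being near background in most cancer lines. For CCL2 the mono-culture level was 15.48 in CMT-U27, 14.77 in CMT-U309, 12.98 in P114, 12.40 in CMT-W1 and 13.28 in CMT-W2, and 18.46 to 19.47 in the 5 macrophage mono-culture profiles. Those profiles correlated at 0.98 to 0.99, and whether they came from separate cultures is not stated in the sources used here, so the p-values of this comparison may rest on fewer than 5 independent macrophage cultures. The groups did not overlap, and the macrophages were 35.6-fold higher (adjusted p = 3.9e-05). CCL8 was 31.0-fold higher in macrophages (adjusted p = 0.0001), CCL5 15.7-fold (0.0002), CCL3 6.07-fold (0.0032) and CCL4 4.69-fold (0.031). Of the 6 genes called higher, CCL4 was the one whose groups overlapped, since mono-cultured CMT-U27 cells reached 14.61 and the macrophages ran from 14.43 to 15.24. The CCL4 difference did not pass without P114, CMT-W1 or CMT-W2 (adjusted p 0.11, 0.060 and 0.11).

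CCL13 marked the macrophage mono-culture, at levels of 10.94 to 11.26, while the mono-cultured cancer cells gave 3.83 to 4.91 and were above background only in CMT-U309. The difference was 6.89, and 2.65 with the normexp background correction, which lifts dim signals. CCL13 entered this comparison through the macrophages alone, with 10 of 10 mono-culture arrays well above background against 2 of 10 for the cancer cells. The size of the difference is therefore poorly fixed and no p-value is given for it. CCL7 was the exception among the 7 genes. Its level was 5.56 to 8.11 in macrophages and 5.15 to 9.43 in cancer cells, with a difference of -0.28 (95% interval -2.08 to 1.52, adjusted p = 0.82). Within the slide shared by the cell types, the macrophage mono-culture of the CMT-U27 pair was higher than mono-cultured CMT-W1 cells by 6.27 for CCL2, 6.38 for CCL8, 4.78 for CCL5, 3.19 for CCL3, 4.06 for CCL4, 6.85 for CCL13 and 2.96 for CCL7. These values compare 1 culture with 1 culture and carry no test, and CCL13 and CCL7 were not well above background in those CMT-W1 cells.

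**Figure D3:**
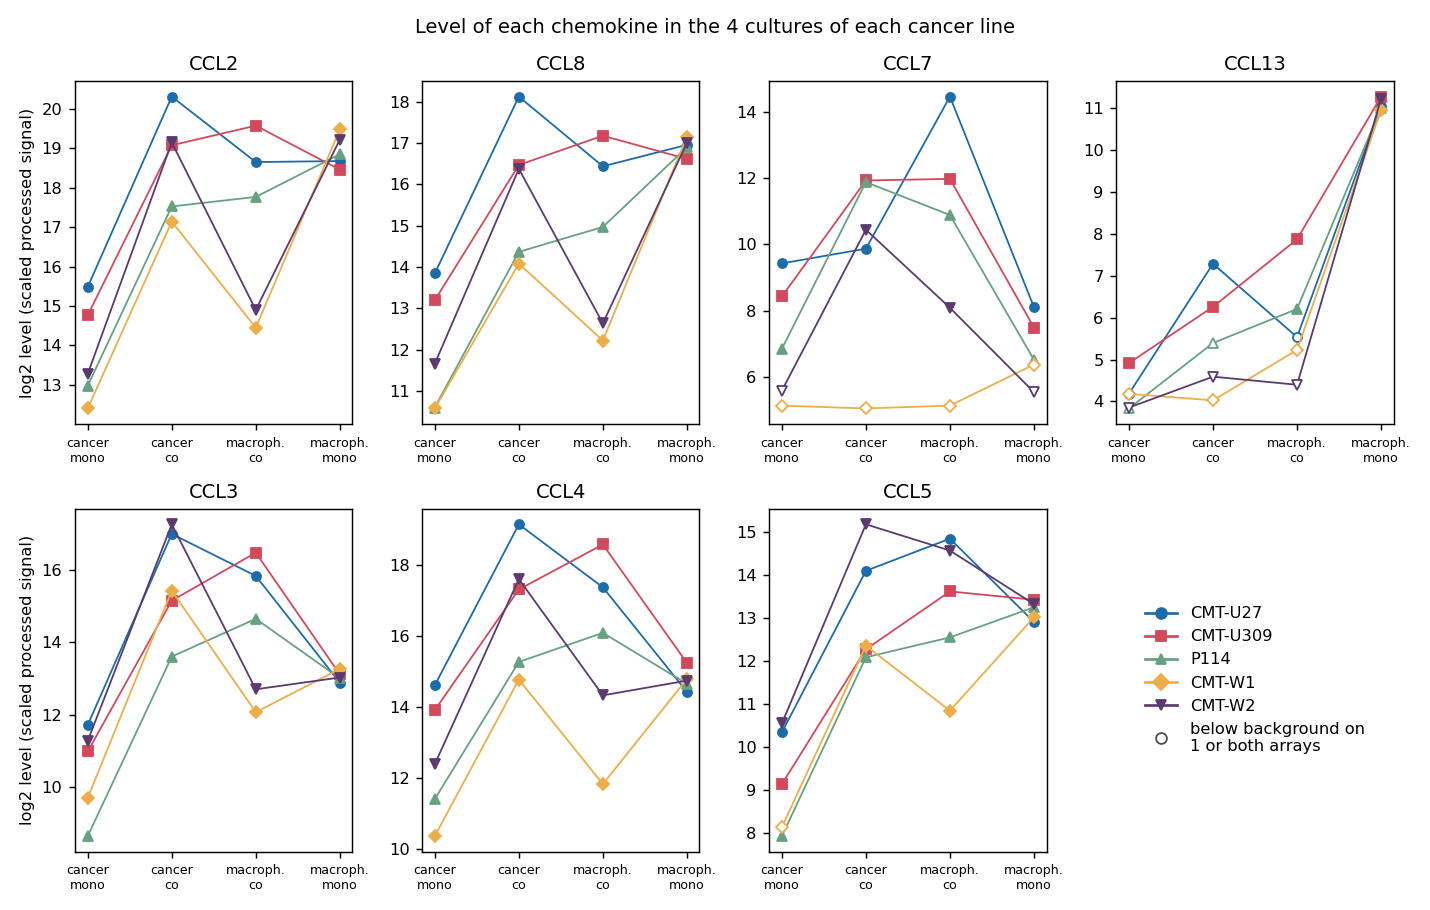
Log2 level (vertical axis, scaled processed signal; not comparable between genes) of each chemokine in mono-cultured cancer cells, sorted cancer cells, sorted macrophages and mono-cultured macrophages, with a line for each cancer line and open symbols where 1 or both arrays were not well above background. CCL13 reaches 10.94 to 11.26 in the macrophage mono-culture and at most 7.86 in the other cultures, while CCL3 is higher in the sorted cancer cells than in either mono-culture in 5 of 5 lines.

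Between the populations sorted from co-culture no such difference was detected. None of the 6 genes tested passed in limma, at an unadjusted p under 0.05 either, and only 1 of 23720 genes did (0.00422%), with 667 genes at an unadjusted p under 0.05. The differences, macrophages minus cancer cells, were -1.57 for CCL2 (95% interval -3.80 to 0.66), -1.34 for CCL3 (-3.43 to 0.74), -1.18 for CCL4 (-3.86 to 1.501), -1.20 for CCL8 (-3.55 to 1.16), 0.09 for CCL5 (-1.77 to 1.95) and 0.27 for CCL7 (-3.49 to 4.04). The co-cultures differed in direction. CCL2, CCL3, CCL4 and CCL8 were each higher in the sorted cancer cells of CMT-U27, CMT-W1 and CMT-W2 and higher in the sorted macrophages of CMT-U309 and P114. The CCL2 difference was -1.66 in CMT-U27, 0.50 in CMT-U309, 0.24 in P114, -2.69 in CMT-W1 and -4.24 in CMT-W2. CCL7 in CMT-U27 went furthest towards the macrophages, with 14.45 in the sorted macrophages and 9.87 in the sorted cancer cells.

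**Figure D4:**
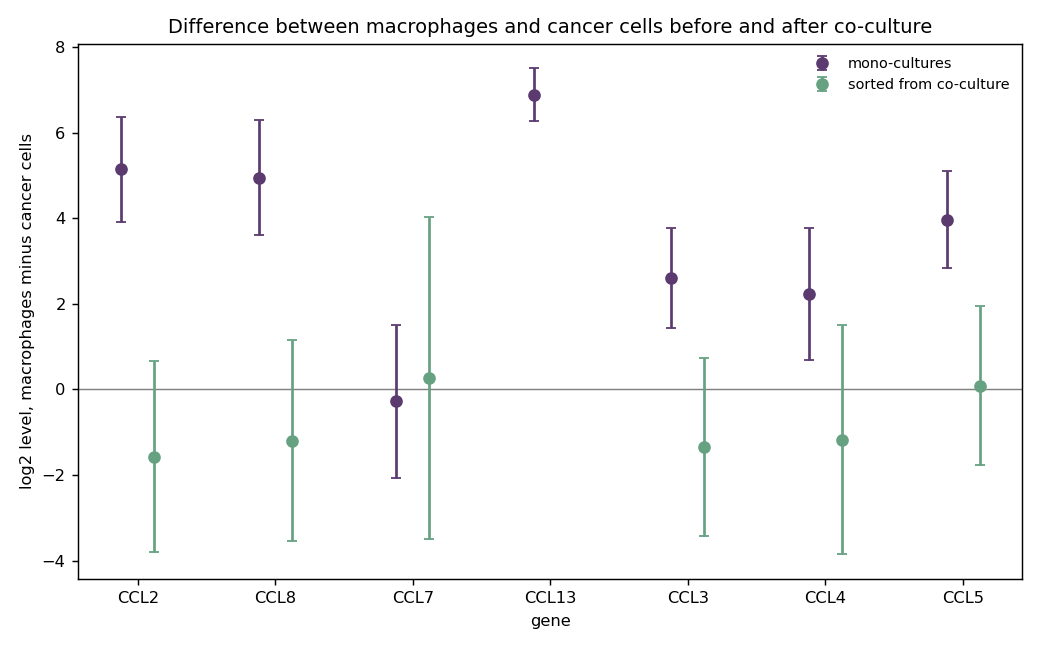
Difference in log2 level between macrophages and cancer cells (vertical axis; above 0 is higher in macrophages) for each gene in mono-culture and after sorting from co-culture, with limma's 95% intervals over 5 level values per cell type and culture. In mono-culture 6 of 7 intervals lie above 0, and after co-culture all 6 intervals of the genes tested span 0. The mono-culture interval of CCL13 sets macrophages against cancer cell signals near background.

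Some of the chemokines reached levels in the sorted cells that neither mono-culture had. A level was counted here as above both where it was higher than the mono-culture of the same cancer line and than the highest of the 5 macrophage mono-cultures, a count chosen after the values were seen. In the sorted cancer cells CCL3 was above both in 5 of 5 lines, and CCL4 and CCL7 in 4 of 5, all but CMT-W1. Such levels in at least 4 lines were found for 3 of the 7 genes and for 6.49% of 20547 genes. The sorted cancer cells held CCL3 at 17.00 in CMT-U27, 15.15 in CMT-U309, 13.61 in P114, 15.43 in CMT-W1 and 17.27 in CMT-W2, where no macrophage mono-culture passed 13.26. CCL4 in P114 lay only just above the macrophages (15.27 against 15.24) and fell below them with normexp signals, which left 3 of 5 lines. CCL5 was above both in CMT-U27 and CMT-W2, and CCL2 and CCL8 only in CMT-U27. CCL13 was above both in no line. In the sorted macrophages CCL3, CCL4 and CCL7 were above both with CMT-U27, CMT-U309 and P114, and CCL5 with CMT-U27, CMT-U309 and CMT-W2. At least 3 such co-cultures were found for 4 of the 7 genes and for 21.5% of all genes.

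Of the receptors of these ligands, CCR1 and CCR3 were higher in sorted than in mono-cultured cancer cells, with ratios of 3.18 for CCR1 (adjusted p = 0.011) and 2.14 for CCR3 (adjusted p = 0.012). In the sorted macrophages CCR1, a receptor of CCL3 and CCL5, fell (-3.36, adjusted p = 0.0003), while CCR3 had a ratio of -0.11 (adjusted p = 0.89). CCR1 thus moved in the direction of the macrophage markers in both populations. CCR2, ACKR1, ACKR2 and CCRL2 were not analysed here.

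Of the cytokines and sensors that induce these chemokines, 8 could be tested. In the cancer cells 7 rose and 1 did not pass, with a median ratio of 4.20. The highest ratios were those of IL1B, the inflammatory interleukin of macrophages (5.86, adjusted p = 0.0079), and of TLR2, a receptor for bacterial lipoproteins (5.25, adjusted p = 0.0013). The lowest were those of NFKB1, a subunit of the factor that switches on many chemokine genes (1.33, adjusted p = 0.032), and of TNF (0.49, adjusted p = 0.16). In the macrophages 3 rose, 3 fell and 2 did not pass, with a median of -0.78. The growth factor CSF2 (4.31, adjusted p = 0.0004) and IL6 (3.32, adjusted p = 0.0042) had the highest ratios. TLR2 (-3.77, adjusted p = 0.0007) and TLR4 (-3.11, adjusted p = 0.0009) had the lowest.

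Among the other chemokines 5 of the 12 matched to a probe by symbol could be tested. In the cancer cells 1 rose, CXCL8, which attracts neutrophils (7.67, adjusted p = 0.0009). CXCL10, an interferon-induced attractant of T lymphocytes, came next (4.13, adjusted p = 0.056), and the lowest were CCL17 (0.29, adjusted p = 0.62) and CCL27 (0.21, adjusted p = 0.67). In the macrophages 4 of the 5 rose, led by CXCL10 (4.28, adjusted p = 7.4e-05) and CCL20 (3.47, adjusted p = 0.0041), with CCL17 lower among them (1.49, adjusted p = 0.015) and CXCL8 not passing (0.56, adjusted p = 0.70). Their median ratio was 2.53 in the cancer cells and 1.88 in the macrophages. MMP9, a protease that can cut chemokines, was the only gene of its list matched to a probe by symbol. Its ratios were 5.37 in the cancer cells (adjusted p = 0.0015) and -2.29 in the macrophages (adjusted p = 0.078).

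Across the 20 cultures the levels of CCL2 and CCL8 ran closest together (Pearson r = 0.98), followed by CCL3 and CCL4 (0.92). CCL7 and CCL13 were the least alike (-0.11), although they are separated only by CCL8 on the chromosome. Among 628 other named genes, the levels most like CCL2 were those of MMP9 (0.97), the lysosomal protease CTSS (0.96) and CTSK (0.96), and CCL8 had the same 3 genes at 0.98 for CTSK, 0.97 for CTSS and 0.96 for MMP9. CCL3 and CCL4 were most like CXCL8 (0.83 and 0.82). CCL3 was followed by IFNB1 (0.78) and SRP14 (0.75), and CCL4 by MMP9 (0.81) and EMR4 (0.79). CCL5 was most like the interferon-induced MX1 (0.88), the class II gene DLA-DRA (0.85) and PTGES (0.85), and CCL7 was most like TFAP2B (0.82), SEC61G (0.81) and CLU (0.80). CCL13 was most like CEACAM23 (0.91) and S100A8 (0.91). The 20 cultures share lines, slides and the close macrophage mono-cultures, so these correlations describe the cultures and carry no p.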

How the data were processed

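Gene expression was measured on 20 two-colour arrays, 4 to a slide and 5 slides in all. The authors deposited the Feature Extraction (version 10.7.3.1) output of each array, with spot intensity columns and a log10 ratio of Cy5 over Cy3 after background correction and dye normalization. The authors also deposited a table of log10 ratio values, equal to this ratio turned to co-culture over mono-culture. Ratios were converted to log2 and the mean of each dye swap was taken. Of several probes of a gene the brightest was used. Of 43603 probes 1648 had a symbol, matched in RefSeq's gene list for UU_Cfam_GSD_1.0; coordinates are left out because the arrays were designed on a different build. Levels came from the processed signals after Aquantile scaling. limma 3.58.1 (R 4.3.3) was fitted over all genes, with Benjamini-Hochberg adjustment and a threshold of 0.05. Normexp (offset 50) used the median signals. On simulated data with 200 changed genes of 23061, 52.0% of 4-fold and 84.5% of 16-fold changes in cancer cells were called, 46% and 92% in macrophages (24208 genes), and 9% and 75% for the difference in change (22402 genes). Far more genes were called in the real data, where the adjustment is less strict. For the difference in change the simulated spread also held the gap between cell types. These shares therefore do not give the power of the tests on the real data. The number of arrays limits the precision. The populations sorted from the same co-culture share its line and are paired by design; across genes their deviations from the group means correlated at 0.45 for CMT-U309, 0.27 for CMT-W1, 0.19 for P114, 0.06 for CMT-W2 and 0.04 for CMT-U27. The members, lists and rules for named genes (all members and receptors found, and the 2 highest and 2 lowest of each other list) were chosen with earlier results of these data known. A gene of these lists is not reported here. Alternatives were other background corrections, normalizations, filters, dyes, blocks and tests, and each line left out. Lists of lymphocyte, granulocyte, epithelial and mesenchymal markers were also taken.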

Additional observations from a re-analysis of the deposited data

Results flagged for a closer look

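For 5 of the 6 chemokines that could be tested, the change with co-culture differed between the cell types by a test of the difference itself. The ratio in macrophages minus the ratio in cancer cells was -6.72 for CCL2, -6.15 for CCL8, -3.95 for CCL3, -3.89 for CCL5 and -3.41 for CCL4 (limma, adjusted p 0.0006, 0.0005, 0.0033, 0.0011 and 0.023, n = 5 co-cultures in each cell type). Lower in macrophages were 16.1% of 22402 genes. The cell types lay on different slides, except for the slide of the CMT-U27 macrophages and the CMT-W1 cancer cells. Within that slide the differences were -4.76 for CCL2, -4.03 for CCL8, -2.78 for CCL3, -2.28 for CCL5 and -1.46 for CCL4. Those values come from a single culture of each cell type. Macrophage markers differed in the same direction, with a median of -8.41 over the 8 that could be tested, and their part in the result was not tested. In 39 checks of the ratios and levels of the 7 genes, no co-culture stood apart from the other 4 by Dixon's criterion at 5 samples (0.71), a check that chance flags for about 1 group in 20.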

How the results depend on the processing

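The number of the 7 chemokines called stayed within 1.5 times of the reported one under most alternatives. The exceptions were the unpaired t-test of the methods, with 0 in the cancer cells and 1 in the macrophages, the macrophages with no filter on dim probes, with 1, and the difference in change with the slide as a fixed block, with 0. That block was chosen after seeing the data and rests on 1 culture of each cell type, those of the slide with both. With the line of the co-culture as a replicate block, which is the paired analysis, 5 chemokines still differed in change and 0 in level after co-culture. CCL7 could not be fitted for the change in that block, since it was not measured in CMT-W1.

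Values that changed sign were not called in any setting. The CCL5 ratio in macrophages was -0.014 with the slide as a random block and ranged from -0.36 (without CMT-U27) to 0.67 (without CMT-W1) over the lines left out, with -0.19 without CMT-W2. The CCL7 difference in change was -0.49 from the arrays with the co-culture in Cy3 and ranged from -0.66 (without CMT-U27) to 2.07 (without CMT-W2) over the lines left out. The CCL7 difference in mono-culture was 0.039 with quantile scaling and 2.96 with the slide as a fixed block. After co-culture that block gave 1.51 for CCL2, 0.41 for CCL3, 2.59 for CCL4 and 2.36 for CCL8. Over the lines left out, the CCL5 difference there ranged from -0.23 (without CMT-U309) to 0.49 (without CMT-W1), and that of CCL7 from -0.80 (without CMT-U27) to 0.93 (without CMT-W2). The cause of these shifts was not tested. Leaving out 1 line at a time gave 5 to 6 chemokines called in the cancer cells, 2 to 4 in the macrophages, 4 to 5 for the difference in change, 5 to 6 in mono-culture and 0 after co-culture. Signals near background limit CCL7 and CCL13.

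Over all genes, 1645 rose and 1711 fell in the cancer cells. These were 421 and 513 with normexp and loess, 2494 and 330 with normexp and median centring, which moved the median of all genes from -0.02 to 0.22, 760 and 1033 with no filter and 3858 and 4300 with the slide as a random block. Leaving out P114 gave 634 and 203. In the macrophages median centring gave 3565 and 3240 in place of 5432 and 6757. For the difference in change it gave 890 higher and 3118 lower in place of 3510 and 3610, and the fixed slide block 30 and 9. After co-culture that block gave 1673 and 46 in place of 1 and 0.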
